A study of Mus musculus with 125 samples.

Results

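Cells with endothelial genes were described in 1 single-cell RNA-seq library labelled as mouse brain at embryonic day 9.5 (E9.5). Cells from outside the brain are possible: Hox genes of the trunk and endocardial genes, described below, were present in a share of them. A barcode was taken when it had at least 200 genes with a UMI (a molecule counted once), at most 10% of its UMIs from mitochondrial genes, a UMI of at least 3 of the 6 endothelial genes Cdh5, Pecam1, Egfl7, Esam, Tie1 and Kdr, and no UMI of Tyrobp, Epcam or Pdgfrb, which mark macrophages, epithelium and pericytes. Of 17176 barcodes in the library 5183 (30.2%) met these conditions, and the 5 single-cell libraries of the series hold 42340 barcodes in all. Of the 17176 barcodes, 9897 passed the first 2 conditions and 5644 also had 3 of the 6 genes. The exclusion genes then removed 461. The 6 genes chose the cells, so their levels are given as a description. Egfl7 was seen in 97.3% of the cells, Kdr in 87.0%, Esam in 78.3%, Cdh5 in 73.6%, Pecam1 in 65.2% and Tie1 in 52.2%. Just inside the limit, the 1172 cells with 3 of the 6 genes had Cldn5 at 550.2 CPM (counts per gene scaled to a total of 1000000 UMIs) and the embryonic globin Hbb-y at 4435 CPM. Just outside it, 1129 barcodes with 2 of the genes had Cldn5 at 361 and Hbb-y at 12896 CPM, so haemoglobin RNA was higher and endothelial RNA lower there. Median UMIs were 2653 with 2 of the genes, 4306.5 with 3 and 10829 with all 6, so the rule also favours deeper barcodes. All levels below are CPM of the summed cells unless a share of cells is named, and levels of different genes are not compared.

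Vessels first enter the neural tube from a surrounding plexus at about this stage. The plexus forms from mesodermal angioblasts, whose ETS factor Etv2 is switched on briefly, and vessels grow into the tissue as sprouts led by tip cells. Wnt ligands of the neural tissue act on endothelial cells through Fzd4, Adgra2 and Reck, and this signal is known to switch on the blood-brain barrier: tight junctions, a set of nutrient and efflux transporters, and loss of the leaky-vessel protein Plvap. Barrier function is acquired over the following days of gestation.

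The series also holds libraries of E12.5, E16.5, P8 and adult (2 months) brain, with 1 library per age and no strain, genotype or sex in the labels used here. Embryonic brains were dissected and digested with collagenase, while P8 and adult cells came from cortex and were released with a neural tissue kit. All were enriched on anti-CD31 magnetic beads (CD31 is the product of Pecam1, one of the 6 genes). E12.5, P8 and adult cells were chosen by the same rule, which took 5302, 4318 and 2850 cells, and the E16.5 library was not compared by gene. Age, dissected region and dissociation therefore cannot be told apart in comparisons with P8 and adult. The labels name the same kit version for all single-cell libraries, but E9.5, P8 and adult barcodes come from another barcode set than those of E12.5. A technical difference between E9.5 and E12.5 that goes with the barcode set cannot be told apart from age. The tissue the cells came from also cannot be told apart from age in that comparison, as Hox and endocardial genes differed between both libraries. With 1 library per age there is no test. Intervals are exact, at 95%, and cover counting error only, and the spread between animals is unknown.

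The E9.5 cells held 40986356 UMIs, with a median of 7003 UMIs and 2361 genes per cell, and a median of 5.58% mitochondrial UMIs. The mitochondrial median was 3.79% in the E12.5 cells. Over all barcodes it was 8.33% at E9.5 and 3.66% at E12.5. The first 2 conditions kept 9897 of 17176 barcodes at E9.5 and 8248 of 8310 at E12.5. This difference between the 2 libraries cannot be told apart from age. Median UMIs were 10020.5 at E12.5, 8029.5 at P8 and 4690.5 in the adult. Of the 5183 cells, 19 had a barcode that another library also used. Both sexes were present: 2021 cells had Xist and no Y-linked UMI, 1018 had a Y-linked and no Xist UMI, and 156 (3.01%) had both. Xist was at 498 CPM at E12.5 and at 0.0974 and 0.0544 at P8 and in the adult, while Y-linked UMIs were present there, so sex and age cannot be told apart between the embryonic and the later cells. Xist and the Y-linked genes, 5 in all, summed to 218 CPM at E9.5 and 567 at E12.5. The mix of sexes may therefore also differ between the 2 embryonic libraries, which was not tested.

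For 22 endothelial genes that the rule did not use, the levels were set beside those of background barcodes of the same library. All 22 were at least 2-fold higher in the chosen cells than in 151 Epcam-bearing barcodes without any of the 6 genes, in 99 haemoglobin-rich barcodes and in all 1118 barcodes that passed the first 2 conditions and had none of the 6 genes. Of the 22, 17 were at 10 or more CPM in the last class too, so that level alone does not mark an endothelial cell. Ramp2 was at 182 and Emcn at 101 there. Ramp2, a receptor-modifying protein of vessels, was at 945 at E9.5, 943 at E12.5, 1100.1 at P8 and 1878 in the adult. Emcn, a surface sialomucin of veins and capillaries, was at 514 at E9.5, 566 at E12.5, 177 at P8 and 281 in the adult. Both were as high at E9.5 as at E12.5 within 2-fold, and neither was used to choose the cells. For position in the head the values were low: of 10 genes of head and brain position, 8 were below 10 CPM at both embryonic ages, and the 2 others reached that level at E12.5 alone. Zic2 was at 3.51 at E9.5, 12.2 at E12.5, 75.5 at P8 and 154 in the adult.

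RNA or cells of other kinds were present. Summed over 11 erythroid genes the level was 3354 CPM at E9.5 and 15444 at E12.5, and Hbb-y was seen in 86.3% (95% interval 85.3 to 87.3) of cells thinned to 2000 UMIs, against 94.7% (95% interval 89.5 to 97.9) of 133 Epcam-bearing barcodes of the same library without any of the 6 endothelial genes. Before thinning, the median depth was 7238 UMIs in the E9.5 cells, 5558 in these Epcam-bearing barcodes and 4804 in a second background class, 99 barcodes with at least 25% haemoglobin UMIs. The 5 megakaryocyte genes summed to 742 and 262 at the 2 embryonic ages, the 6 mural genes to 151 and 20.2, the 5 heart muscle genes to 83.8 and 4.61, and the 5 epithelial genes to 35.3 and 2.15. Neural crest genes summed to 1.98 at E9.5 with Foxd3 at 0, and the mural gene Kcnj8 was also at 0. Other lists summed lower at E9.5 than at E12.5: 11 neural genes to 185 and 245, 8 mesenchyme genes to 51.0 and 72.7, 8 macrophage genes to 18.8 and 37.5, and 6 liver and yolk sac endoderm genes to 17.0 and 42.2. The part of such RNA in the results below was not tested, except where counts without some cells are given. Among the sub-clusters described below, 131 cells were megakaryocyte-like and 37 erythroid-like, and the levels of Pf4 and Runx1 and the ranking of variable genes are given with and without them.

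For the comparison with E12.5, UMIs were summed over the cells of each library and scaled to CPM, and a gene counted as higher or lower when the ratio was at least 2-fold with 10 or more CPM in the higher library. A value under 3 UMIs was set to 3. Of 8227 genes at that level, 752 (9.14%) were higher at E9.5 and 1556 (18.9%) were lower, and the median gene lay at -0.16 on the log2 scale of E9.5 over E12.5. Against adult cells 9021 genes were compared, of which 2025 (22.4%) were higher at E9.5 and 3092 (34.3%) lower, with a median of -0.33. Scaling to the median ratio of well-detected genes moved the adult comparison by 0.18 on the log2 scale. Of the 752 genes higher than at E12.5, 422 (56.1%) were also at least 2-fold higher than both at P8 and in the adult. Of the 1556 lower genes, 755 (48.5%) were also lower than at both of these ages. All these comparisons share the E9.5 cells, which builds in some overlap. The share of all genes past 2-fold at P8 is not given, so the overlap is not read. Of the genes called against E12.5, 285 of 752 higher and 670 of 1556 lower ones reached 10 CPM in the higher library alone, and against the adult 936 of 2025 and 1580 of 3092. Such a gene was compared only because of the library where it was high, so the counts by list are descriptions.

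**Figure D1:**
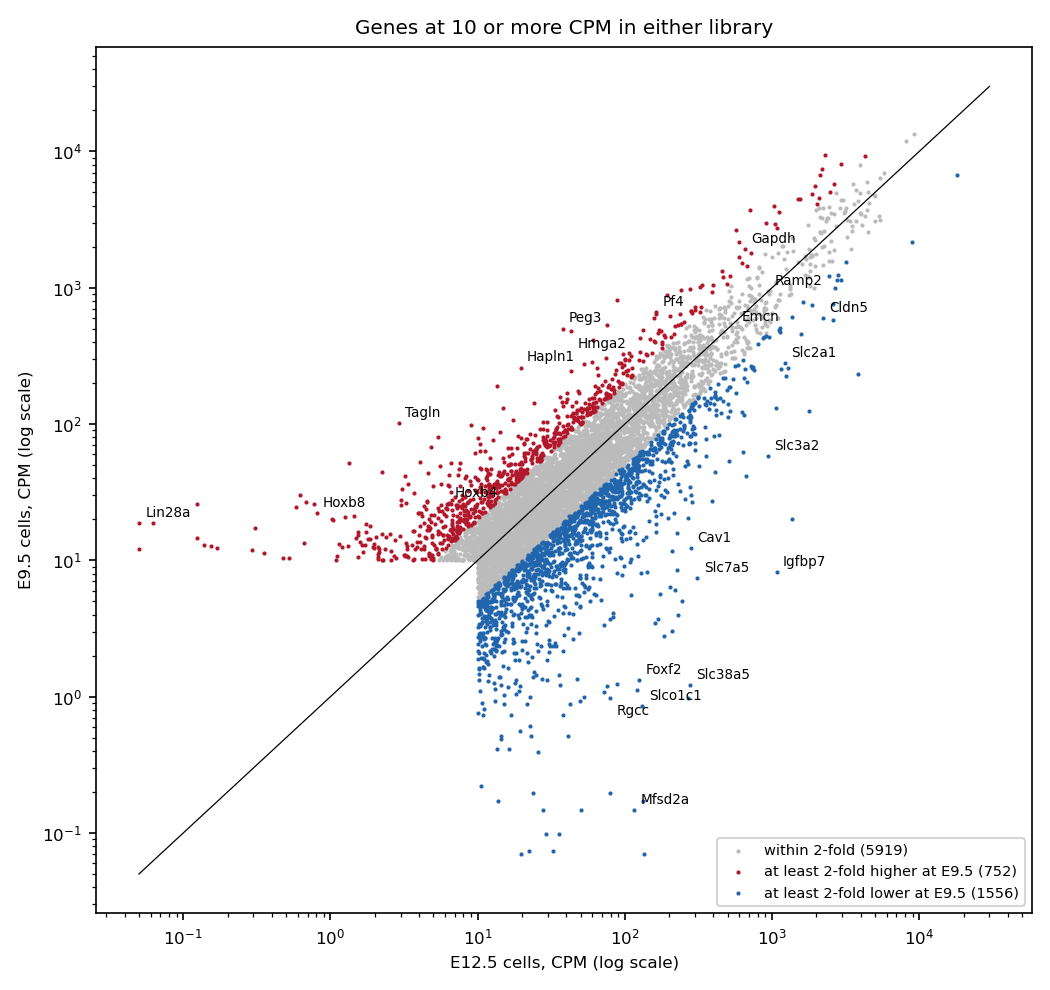
Level of each gene with 10 or more CPM in E9.5 (vertical axis) and E12.5 (horizontal axis) endothelial cells, both on log scales, with points at the edge of the range drawn there. The 752 genes in red were at least 2-fold higher at E9.5 and the 1556 in blue at least 2-fold lower, with barrier and Wnt-list genes such as Mfsd2a, Slco1c1 and Foxf2 far below the line of equal levels.

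Transporters that the mature barrier uses were nearly all far below their later levels. Of 14 genes on the list, 12 reached 10 CPM in at least 1 of the 2 embryonic libraries, 11 of these were at least 2-fold lower at E9.5 than at E12.5 and 1 was higher, where 18.9% of all genes were lower. Of the 11, 7 reached 10 CPM at E12.5 alone. Mfsd2a, the lysophospholipid carrier that limits transcytosis in brain vessels, was at 0.146 at E9.5, 115 at E12.5, 824 at P8 and 443 in the adult. The E9.5 value rests on 6 UMIs in 5183 cells against 7457 in 5302, a ratio of 788-fold (95% interval 362 to 2148). Slco1c1, which carries thyroid hormone, was at 0.854 at E9.5, 132 at E12.5, 1687 at P8 and 1842 in the adult, and Slc38a5, an amino acid carrier, was at 1.22 at E9.5, 276 at E12.5, 787 at P8 and 233 in the adult. Their E9.5 levels rest on 35 and 50 UMIs, and the 37 erythroid-like cells held Slc38a5 at 65.9. Slco1a4, an organic anion carrier, had 0 UMIs at E9.5 and was at 279 at P8 and 1899.6 in the adult. Slc22a8, another organic anion carrier, had 3 UMIs at E9.5 and was at 32.3 at E12.5.

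Slc2a1, Abcg2, Slc7a1 and Slc3a2 were at 10 or more CPM at E9.5 and lower than at E12.5 by smaller factors. Slc7a5 and Abcb1a were below 10 CPM at E9.5. Slc2a1, the glucose transporter of the barrier, was at 278 at E9.5, 1222 at E12.5, 863 at P8 and 5525 in the adult, which was 4.39-fold (95% interval 4.30 to 4.48) lower at E9.5 than at E12.5, and a UMI was seen in 40.9% (95% interval 39.5 to 42.3) of thinned cells at E9.5 against 74.0% (95% interval 72.8 to 75.2) at E12.5. The same share was 23.3% (95% interval 16.4 to 31.4) in the Epcam-bearing barcodes and 24.2% (95% interval 16.2 to 33.9) in 99 haemoglobin-rich barcodes, and without thinning it was 73.3% (95% interval 72.0 to 74.5) in the E9.5 cells. Abcg2, an efflux pump, was at 127 at E9.5, 418 at E12.5, 367 at P8 and 1212 in the adult. Slc7a1, which carries cationic amino acids, was at 22.2 at E9.5, 215 at E12.5, 769.6 at P8 and 725 in the adult. Both were lowest at E9.5 and present at every age. Slc3a2 and Slc7a5, which together form the large neutral amino acid carrier, were at 58.2, 932, 1002 and 760.1 and at 7.39, 311, 230.0 and 777 at the 4 ages in the same order. Abcb1a, the P-glycoprotein efflux pump, was at 0.390 at E9.5, 25.5 at E12.5, 285 at P8 and 1169 in the adult. The exception was the lactate carrier Slc16a1, at 16.7 at E9.5, 6.5 at E12.5, 1745 at P8 and 384 in the adult, which was above its E12.5 level at E9.5 and far below that of P8. Against the adult, all 14 genes of the list were at least 2-fold lower at E9.5, where 34.3% of all genes were, but 9 of the 14 reached 10 CPM in the adult alone and were compared only through it. In 5 subsets of the E9.5 cells, including only the 3281 cells of the venous-like, tip cell-like and arterial-like sub-clusters and only the 2575 cells without a Hox UMI, the count against E12.5 stayed at 11 lower and 1 higher of 12. The E12.5 cells were left whole here and in every subset count below, so these counts come from unlike sets of cells. The cells without a Hox UMI were chosen before thinning, which favours shallow cells. They can also come from outside the brain, as only 8.96% of thinned endocardial-like cells had a Hox UMI. The count in them does not decide whether such cells play a part.

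Of 15 Wnt receptors and targets compared, 10 were at least 2-fold lower at E9.5 than at E12.5, where 18.9% of all genes were, and none was higher. Of the 10, 7 reached 10 CPM at E12.5 alone. Against the adult all 19 were lower, 12 of them with 10 CPM in the adult alone, where 34.3% of all genes were. Among the targets, Foxq1, a forkhead factor of brain endothelium, was at 5.68 at E9.5, 173 at E12.5, 393 at P8 and 604 in the adult. Foxf2, a forkhead factor needed for the barrier, was at 1.32 at E9.5, 125.3 at E12.5, 144 at P8 and 104 in the adult. Lef1, the transcription factor through which beta-catenin acts, was at 28.1 at E9.5, 84.3 at E12.5, 192 at P8 and 583 in the adult, and Nkd1, an inhibitor that the signal induces, was at 9.10 at E9.5, 99.3 at E12.5, 111 at P8 and 130.0 in the adult. Tnfrsf19 was at 6.61, 27.0, 113 and 99.9 and Tcf7 at 9.42, 39.4, 95.5 and 87.7 in age order. The targets were thus low but not at 0 at E9.5: Foxq1 was seen in 1.06% (95% interval 0.790 to 1.38) of thinned E9.5 cells (3.86% without thinning), against 24.6% (95% interval 23.4 to 25.8) at E12.5, and in 0 of the 133 Epcam-bearing and 0 of the 99 haemoglobin-rich barcodes, which at 3 cells of the total allows shares of up to 2.26% and 3.03%. These background classes hold too few cells to bound the E9.5 share. Among the receptors, Fzd4 was at 33.5 at E9.5, 34.1 at E12.5, 68.3 at P8 and 249 in the adult and the co-receptor Lrp6 at 23.3 at E9.5, 26.7 at E12.5, 57.0 at P8 and 117 in the adult, both within 2-fold at the embryonic ages. Fzd6 was at 2.95 at E9.5, 48.7 at E12.5, 143 at P8 and 142 in the adult and the Fzd4 partner Tspan12 at 10.1 at E9.5, 47.1 at E12.5, 72.8 at P8 and 64.2 in the adult, both lower at E9.5. Ctnnb1, which encodes beta-catenin, was at 256 at E9.5, 428 at E12.5, 541 at P8 and 637 in the adult, within 2-fold at the embryonic ages.

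**Figure D2:**
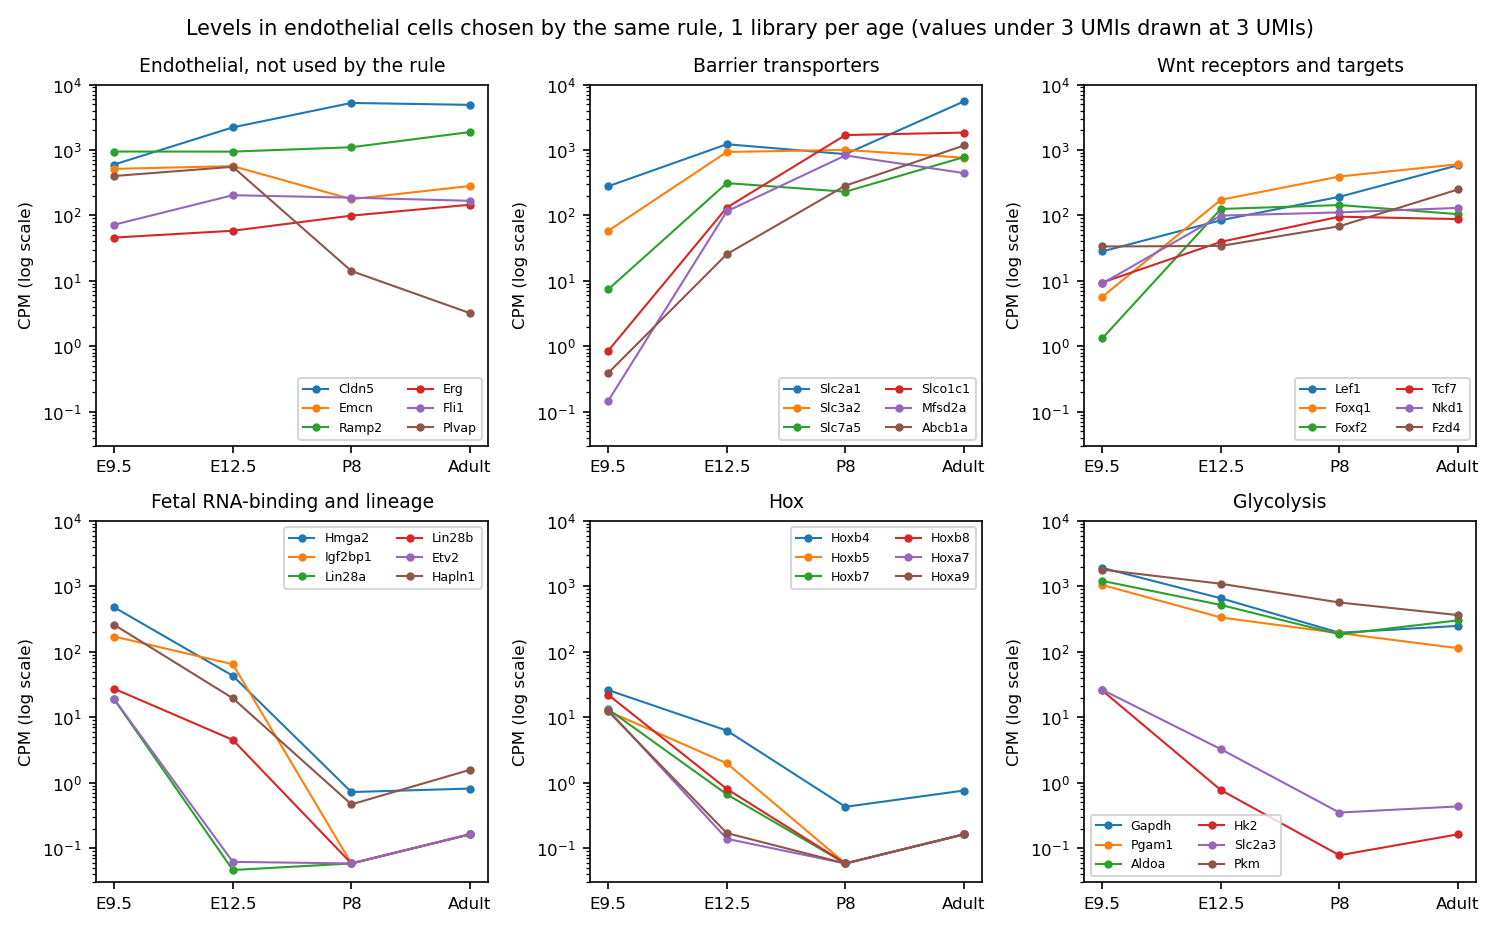
Levels (CPM, log scale, 1 library per age, values under 3 UMIs drawn at 3 UMIs) of 36 genes in endothelial cells chosen by the same rule at E9.5, E12.5, P8 and adult. Barrier and Wnt-list genes lie lowest at E9.5, where Mfsd2a is at 0.146, while fetal RNA-binding and Hox genes lie highest at E9.5.

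Genes of junctions and vesicles divided by gene. Of 8 tight junction genes 5 were at least 2-fold lower at E9.5 than at E12.5, 4 of them with 10 CPM at E12.5 alone, against 18.9% of all genes. All 8 compared with the adult were lower, 4 of them with 10 CPM in the adult alone, against 34.3%. Cldn5, the main sealing claudin, was at 599 at E9.5, 2213 at E12.5, 5228 at P8 and 4883 in the adult, a ratio of 3.70-fold (95% interval 3.65 to 3.75) between E12.5 and E9.5, and was seen in 63.0% (95% interval 61.6 to 64.3) of thinned E9.5 cells against 88.9% (95% interval 88.0 to 89.7) at E12.5 and 9.02% (95% interval 4.75 to 15.2) of the Epcam-bearing barcodes. Lsr and Jam2, of tricellular and bicellular junctions, were at 2.78, 185, 247 and 306 and 0.512, 41.0, 155 and 310.0 in age order, and Ocln at 1.85, 29.6, 174.9 and 317. Tjp1, the scaffold ZO-1, was within 2-fold of E12.5 at 160.0 and 165. Plvap, the diaphragm protein of fenestrae, was at 399.8 at E9.5, 552 at E12.5, 14.1 at P8 and 3.21 in the adult, so the E9.5 and E12.5 cells both carried it, and the later cells hardly. Of 7 permeability and vesicle genes 5 were lower at E9.5, among them the caveolar coat genes Cav1, at 12.2, 281, 239.5 and 261 in age order, and Cav2, at 10.3, 94.5, 78.6 and 175.2.

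Of the 22 endothelial genes not used by the rule, 10 were at least 2-fold lower than at E12.5 and none was higher (median -0.92), beside 18.9% of all genes lower, and 3 of the 6 rule genes were lower. Robo4, a guidance receptor of vessels, was at 16.0 at E9.5, 118 at E12.5, 78.8 at P8 and 128 in the adult. Clec14a was at 81.9 and 279 at the embryonic ages and Sox7 at 25.1 and 103. Egfl7, Ramp2, Icam2 and Emcn were within 2-fold. Fewer endothelial transcripts per cell and more RNA from other sources cannot be told apart in these sums.

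Of 14 tip cell genes 12 were at least 2-fold lower at E9.5 than at E12.5, 7 of them with 10 CPM at E12.5 alone, and none was higher. The counts in this paragraph stand beside 18.9% of all genes lower and 9.14% higher. Apln, a ligand made by tip cells, was at 28.6 at E9.5, 146 at E12.5, 312 at P8 and 0.326 in the adult. The chemokine receptor Cxcr4 was at 2.59 at E9.5, 30.4 at E12.5, 25.4 at P8 and 1.74 in the adult, and Rgcc at 0.976 at E9.5, 79.8 at E12.5, 196 at P8 and 429 in the adult. Esm1 and Lama4 were the 2 tip cell genes within 2-fold. Of 16 arterial genes 8 were lower and none higher: Dll4, the Notch ligand of arterial and tip cells, was at 15.3 at E9.5, 64.1 at E12.5, 81.8 at P8 and 35.9 in the adult and the gap junction gene Gja4 at 196 at E9.5, 431 at E12.5, 183 at P8 and 86.4 in the adult. In the 3281 cells of the venous-like, tip cell-like and arterial-like sub-clusters the arterial count was 5 lower and 1 higher. That set keeps the sub-cluster named by arterial genes and is set against all E12.5 cells. A rise of arterial genes was thus built in, and this count is not read. Hey1 was at 24.7 and 61.5 at the embryonic ages, Unc5b at 30.9 and 62.4, Jag1 at 6.81 and 39.0, Sox17 at 73.8 and 212, and Igfbp3 at 49.0 and 318. Of 10 venous genes 4 were lower (Aplnr, Vwf, Ephb4 and Slc38a5). The apelin receptor Aplnr was at 113 at E9.5, 500.3 at E12.5, 263 at P8 and 10.4 in the adult. The venous factor Nr2f2 was at 65.7 at E9.5, 70.6 at E12.5, 66.9 at P8 and 83.8 in the adult, within 2-fold at all ages. Of 10 Notch pathway genes 7 were lower and none higher. The target Hes1 was at 26.3 at E9.5, 97.1 at E12.5, 263 at P8 and 238 in the adult, the feedback gene Nrarp at 19.3 at E9.5, 147 at E12.5, 80.0 at P8 and 15.4 in the adult, and the receptor Notch1, within 2-fold of E12.5, at 67.1 at E9.5, 78.4 at E12.5, 163 at P8 and 213 in the adult. The glycosyltransferases that tune the receptor, Mfng and Lfng, were at 52.9 and 4.29 at E9.5 and at 205 and 35.0 at E12.5. Of 10 axon guidance genes 4 were lower (Robo4, Sema6a, Unc5b and Ephb4), and 3 of 10 without the megakaryocyte-like and erythroid-like cells or with median ratio scaling. Of 11 VEGF and angiopoietin genes 3 were lower (Apln, Aplnr and Angpt2), a share near that of all genes, with Vegfb higher at 43.8 against 11.7. Of 13 BMP and TGF-beta genes 6 were lower and 1 was higher, the ligand Bmp4 at 24.0 at E9.5, 4.45 at E12.5, 2.46 at P8 and 2.28 in the adult. The lower ones included the inhibitor Id3 at 441 and 916, the co-receptor Eng at 217 and 463, and Tgfbr2 at 26.8 and 68.8. With totals that leave out haemoglobin, mitochondrial and ribosomal genes 3 of 13 were lower, a share near that of all genes. In the cells without a Hox UMI 3 BMP and TGF-beta genes were lower, and 4 in the venous-like, tip cell-like and arterial-like cells. Of 11 basement membrane genes 3 were lower, also near the share of all genes, among them Sparc at 1148 and 2953, while Col4a1 was at 710.3 and 439.7, within 2-fold.

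**Figure D3:**
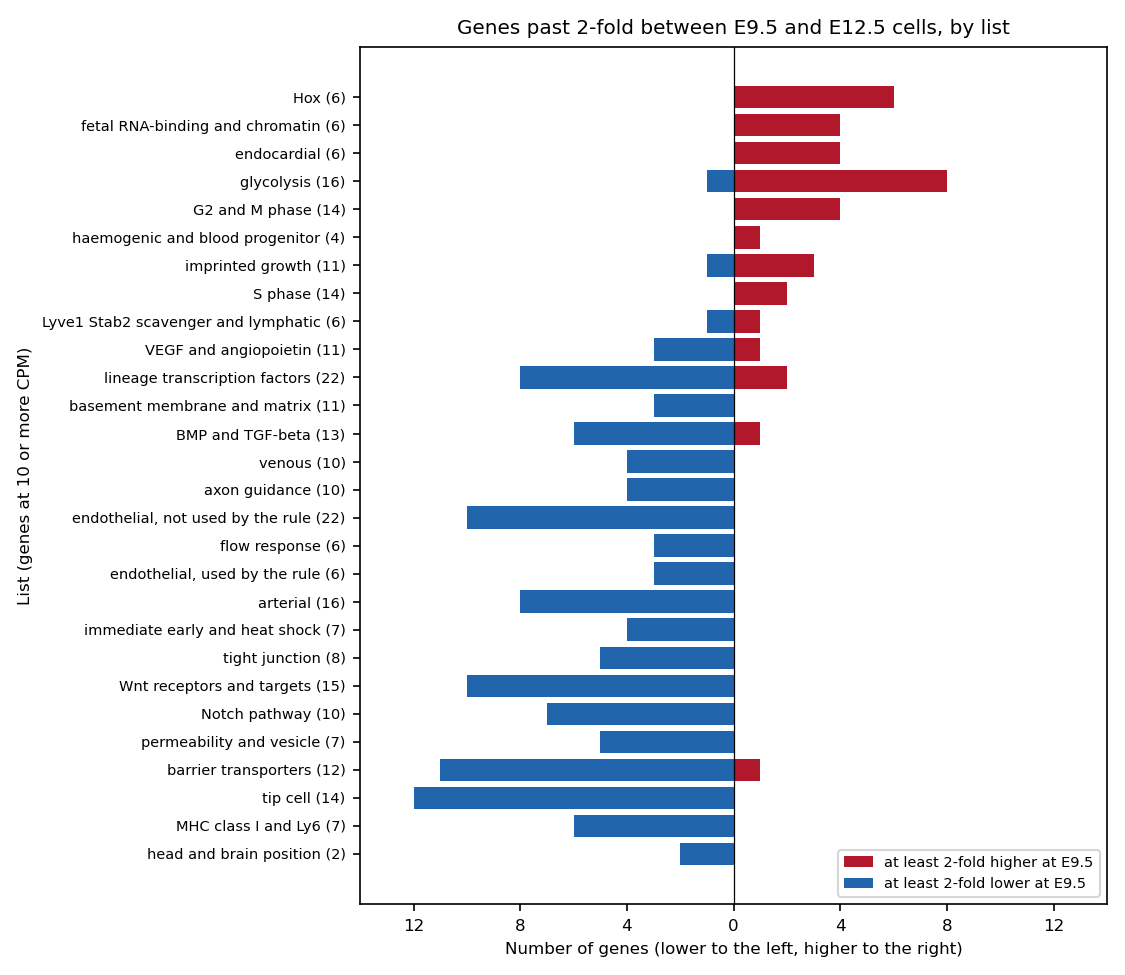
Number of genes of each list at least 2-fold higher (red, to the right) or lower (blue, to the left) at E9.5 than at E12.5, with the number compared in brackets. Barrier transporters (11 of 12), tip cell genes (12 of 14) and Wnt receptors and targets (10 of 15) lie to the left, and fetal RNA-binding (4 of 6) and glycolysis genes (8 of 16) to the right. Of these genes 7, 7, 7, 2 and 3 in that order reached 10 CPM in the higher library alone. The 6 Hox genes had 10 CPM at E9.5 alone, so their bar could not lie to the left.

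Of 22 lineage transcription factors 2 were at least 2-fold higher at E9.5 than at E12.5 and 8 lower, where 9.14% and 18.9% of all genes were, so the higher share is near that of all genes, and both higher genes had 10 CPM at E9.5 alone. Etv2, the pioneer factor of the haematoendothelial lineage, was at 18.9 (95% interval 17.6 to 20.3), from 775 UMIs, against 4 UMIs at E12.5, a ratio of 306-fold (95% interval 119 to 1124), and 0 at P8 and in the adult. It was seen in 3.57% (95% interval 3.07 to 4.13) of thinned E9.5 cells and 0.752% (95% interval 0.0190 to 4.12) of the Epcam-bearing barcodes, and its level was 69.9 in the endocardial-like sub-cluster and 24.2 in the venous-like one. Foxc2, a forkhead factor of mesoderm, vessels and lymphatics, was at 15.1 at E9.5, 2.99 at E12.5, 0.429 at P8 and 0.435 in the adult. Among the 8 lower factors, Lmo2, a bridging protein of blood and vessel factors, was at 125.3 at E9.5, 515 at E12.5, 435 at P8 and 211 in the adult, the hypoxia factor Epas1 at 31.9 at E9.5, 119.6 at E12.5, 429 at P8 and 1493 in the adult and the ETS factor Fli1 at 72.0 at E9.5, 203 at E12.5, 187 at P8 and 167 in the adult. Elk3, Sox7, Sox17, Foxc1 and Meox2 were the others. Mef2c, a factor of vascular and cardiac development, was at 212 at E9.5 and 213 at E12.5. Of 6 fetal RNA-binding and chromatin genes 4 were higher, 2 of them with 10 CPM at E9.5 alone, and none lower, where 9.14% of all genes were higher. With totals that leave out haemoglobin, mitochondrial and ribosomal genes 7 of 7 were higher. Hmga2, a chromatin protein of fetal growth, was at 479.7 at E9.5, 43.2 at E12.5, 0.721 at P8 and 0.815 in the adult, and was seen in 57.1% (95% interval 55.7 to 58.5) of thinned cells but also in 51.1% (95% interval 42.3 to 59.9) of the Epcam-bearing barcodes. Lin28a, which blocks let-7 maturation, had 773 UMIs at E9.5, 1 at E12.5 and 0 later. Lin28b was at 27.3, 4.52, 0.0195 and 0 in age order and the mRNA-binding protein gene Igf2bp1 at 171, 64.7, 0.0195 and 0.0544. Igf2bp2 and Igf2bp3 were within 2-fold of E12.5, at 1.90-fold and 1.91-fold higher.

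Of 11 imprinted growth genes 3 were higher than at E12.5 and 1 lower, and all 11 were higher than in the adult (8 with 10 CPM at E9.5 alone), where 9.14%, 18.9% and 22.4% of all genes were. Peg3, a paternally expressed zinc-finger gene, was at 502 at E9.5, 37.9 at E12.5, 10.5 at P8 and 9.02 in the adult. Mest was the lower gene, at 1244 at E9.5, 2824 at E12.5, 25.8 at P8 and 2.23 in the adult. H19 and Igf2, the reciprocally imprinted neighbours, were at 1045 at E9.5, 1330.0 at E12.5, 0.877 at P8 and 0 in the adult for H19 and 315, 296, 3.18 and 6.63 in the same order for Igf2. In the 3281 cells of the venous-like, tip cell-like and arterial-like sub-clusters 1 of 10 was higher and 1 lower, with Peg3 at 467 and Dlk1 at 7.82. Dlk1 was at 15.7 over all E9.5 cells and Igf2r, a receptor that removes IGF2, at 79.7, against 6.82 and 37.9 at E12.5.

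All 14 genes of the S phase list and all 14 of the G2 and M phase list were at least 2-fold higher than in the adult, where 22.4% of all genes were, with 9 and 13 of them at 10 CPM at E9.5 alone. Against E12.5, where 9.14% of all genes were higher, 2 of 14 S phase genes were higher, a share near that of all genes, and 4 of 14 G2 and M phase genes, with none lower. Without cells with a Hox UMI 1 of 14 S phase genes was higher. Mki67, a protein of cycling nuclei, was at 174 at E9.5, 48.3 at E12.5, 67.6 at P8 and 0.326 in the adult, and Top2a, the topoisomerase of chromosome separation, at 400.2 at E9.5, 160.3 at E12.5, 97.2 at P8 and 0.652 in the adult. Mki67 was seen in 24.2% (95% interval 23.0 to 25.4) of thinned E9.5 cells, 8.28% (95% interval 7.55 to 9.05) at E12.5, 3.39% (95% interval 2.86 to 3.98) at P8 and 0.0373% (95% interval 0.000945 to 0.208) in the adult. Without thinning the share was 53.2% at E9.5 and 31.6% at E12.5. Epcam-bearing barcodes had 17.3% (95% interval 11.3 to 24.8) and haemoglobin-rich ones 45.5% (95% interval 35.4 to 55.8), so such UMIs were also frequent in other barcodes of this library. Other cycle genes ordered the 2 embryonic ages differently: Cdk1 was at 140.3 at E9.5 and 249 at E12.5, and Pcna at 33.1 and 51.5.

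Of 16 glycolysis genes, 8 were at least 2-fold higher at E9.5 than at E12.5, where 9.14% of all genes were, 1, Slc2a1, was lower, and 7 were within 2-fold. Of the 8, 3 reached 10 CPM at E9.5 alone. Against the adult 11 were higher, 3 of them with 10 CPM at E9.5 alone, where 22.4% of all genes were. Gapdh was at 1923 at E9.5, 660.0 at E12.5, 196 at P8 and 249.5 in the adult, a ratio of 2.91-fold (95% interval 2.88 to 2.95) to E12.5. The hexokinase gene Hk2 was at 25.7 at E9.5, 0.773 at E12.5, 0.0779 at P8 and 0.163 in the adult. Slc2a3, a glucose transporter of neurons and early embryos, was at 26.4 at E9.5, 3.26 at E12.5, 0.351 at P8 and 0.435 in the adult, in the direction opposite to Slc2a1. Aldoa was at 1215, 521, 185 and 303 in age order, Pgam1 at 1055, 335, 193 and 114, Eno1 at 432, 189, 98.4 and 131 and Tpi1 at 543, 241, 189 and 167, each lower at P8 than at either embryonic age. Slc16a3, a lactate exporter outside the list, was among the 15 genes with the largest ratio of those at 50 CPM or more, at 130.4 at E9.5, 15.0 at E12.5, 0.156 at P8 and 1.58 in the adult.

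The flow, immediate early and MHC lists held members lower at E9.5, where 18.9% of all genes were lower than at E12.5 and 34.3% lower than in the adult. Klf2, a factor that shear stress induces, was at 122 at E9.5, 623 at E12.5, 1172 at P8 and 1951 in the adult, and Klf4 at 4.56 at E9.5, 49.3 at E12.5, 254 at P8 and 868 in the adult, and 3 of 6 flow genes were at least 2-fold below E12.5 and all 6 below the adult, with 2 of the 3 at 10 CPM at E12.5 alone and 2 of the 6 at 10 CPM in the adult alone. Of 7 immediate early and heat shock genes 4 were lower (3 with median ratio scaling), among them Fos at 3.71 at E9.5, 79.6 at E12.5, 503 at P8 and 715 in the adult and Junb at 30.0 and 177. This group responds to dissociation, which differed between embryonic and later samples, and its part was not tested. Of 7 MHC class I and Ly6 genes 6 were lower: B2m was at 62.0 at E9.5, 639 at E12.5, 205 at P8 and 441 in the adult, H2-D1 at 53.3 at E9.5, 509 at E12.5, 781 at P8 and 1648 in the adult and Ly6c1 at 6.37 at E9.5, 53.4 at E12.5, 885 at P8 and 4394 in the adult. The MHC class I genes are similar in sequence, so the split of reads between H2-D1 and H2-K1 is uncertain. All 8 of that list were lower than in the adult.

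Ratios to E12.5 were ranked among genes at 50 CPM or more in the higher library, which leaves out genes such as Etv2 and Lin28a. Among the 15 genes with the largest ratio upward was Tagln, an actin-binding protein of smooth muscle, at 101 at E9.5, 2.91 at E12.5, 1.75 at P8 and 8.15 in the adult. The hyaluronan-linking protein Hapln1 was at 259 at E9.5, 19.6 at E12.5, 0.468 at P8 and 1.58 in the adult. The homeodomain factor Meis2 was at 52.9 at E9.5, 4.05 at E12.5, 0.487 at P8 and 0.381 in the adult, and the cell adhesion gene Prtg at 68.2 at E9.5, 4.86 at E12.5, 2.20 at P8 and 0 in the adult. The galectin gene Lgals1 was at 811 at E9.5, 88.9 at E12.5, 4.27 at P8 and 7.12 in the adult, and Bex2 at 99.1 at E9.5, 9.06 at E12.5, 0.273 at P8 and 0.326 in the adult. Each of these was lower at every later age than at E9.5. Tagln was highest in the arterial-like sub-cluster (468) and in sub-cluster 6 (208). Csnk2a2, Brd1, mt-Atp8 and mt-Nd6 were also among the 15, and Csnk2a2 was at 80.4, 5.35, 54.6 and 47.0 and Brd1 at 78.6, 9.99, 109 and 147 in age order, higher at E9.5, P8 and adult than at E12.5, as the barcode sets also divide the libraries. What the barcode sets stand for is not given by the labels, and their part was not tested. Gm6625 had the largest upward ratio of the genes at 50 CPM or more, at 51.9 at E9.5, 1.33 at E12.5, 7.74 at P8 and 10.2 in the adult. Hist1h1b, a replication-dependent histone gene, was at 191 at E9.5, 13.6 at E12.5, 105 at P8 and 0.435 in the adult. The 15 largest downward ratios included the proteoglycan gene Spock2 at 0.171 at E9.5, 133 at E12.5, 888 at P8 and 2541 in the adult. Igfbp7, which encodes a secreted vascular protein, was at 8.17 at E9.5, 1073 at E12.5, 2618 at P8 and 1718 in the adult. The lipocalin gene Apod was at 0.195 at E9.5, 79.1 at E12.5, 69.4 at P8 and 51.4 in the adult, and the protease gene Htra3 at 3.05 at E9.5, 209.7 at E12.5, 259 at P8 and 8.37 in the adult. Cthrc1 was at 1.24 at E9.5, 88.8 at E12.5, 150.2 at P8 and 124 in the adult and the amino acid carrier Slc38a3 at 1.12 at E9.5, 121 at E12.5, 246 at P8 and 207 in the adult. Ccl21a had 0 UMIs at E9.5 and 8789 at E12.5, at least 1857-fold lower over the library at a floor of 3 UMIs, but near-identical copies of this gene leave its count uncertain. The adult globin genes Hbb-bt and Hbb-bs were also among the 15, beside the erythroid total given above.

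Hox genes, which mark position along the trunk and are not expressed in the forebrain or midbrain, were present in the E9.5 cells. Of 39 genes 6 reached 10 CPM at E9.5 and none did at E12.5, so these 6 were compared only through E9.5 and their count is not read. Hoxb8 was at 22.1 at E9.5, 0.804 at E12.5, 0 at P8 and 0 in the adult, a ratio of 27.5-fold (95% interval 20.7 to 37.0). Hoxb4 was at 26.1 at E9.5, 6.28 at E12.5, 0.429 at P8 and 0.761 in the adult. Hoxa7 was at 12.96 at E9.5 and 0.139 at E12.5, and Hoxa9 at 12.4 and 0.170, with 0 UMIs of both at P8 and in the adult. A UMI of any Hox gene was seen in 24.2% (95% interval 23.0 to 25.4) of 4925 cells thinned to 2000 UMIs (258 shallower cells were left out) and in 50.3% without thinning. The share was 5.04% (95% interval 4.46 to 5.66) at E12.5, 0.379% (95% interval 0.217 to 0.615) at P8 and 0.373% (95% interval 0.179 to 0.685) in the adult. Haemoglobin-rich barcodes of the E9.5 library had 2.02% (95% interval 0.246 to 7.11), and Epcam-bearing barcodes, which can express Hox genes themselves, 33.1% (95% interval 25.2 to 41.8). Hox genes of paralogue groups 6 to 13, which lie behind the hindbrain, were seen in 13.5% (95% interval 12.5 to 14.5), and groups 1 to 5, which reach into the hindbrain, in 13.1% (95% interval 12.2 to 14.1). Most cells with a group 6 to 13 UMI had 1 such gene: 549 had 1, 97 had 2 and 18 had 3 or more.

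Cells with a UMI of groups 6 to 13 (664 cells after thinning) were set beside the 4261 without. The imprinted gene Dlk1 was at 40.0 in cells with and 11.9 in cells without, Pcsk1n at 68.5 and 20.4, and the Wnt amplifier Rspo3 at 37.0 and 18.5. Dlk1, Pcsk1n and Rspo3 are also leading genes of sub-cluster 5 below, beside Hox genes and in the same cells. Their values here are a description and give no separate support. Foxq1 was at 1.94 in cells with and 6.24 in cells without, and Slc2a1 at 234 and 285. Cldn5 was at 576 and 602 and Plvap at 395 and 401, near one another. No replicate measures the error of these pairs.

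**Figure D4:**
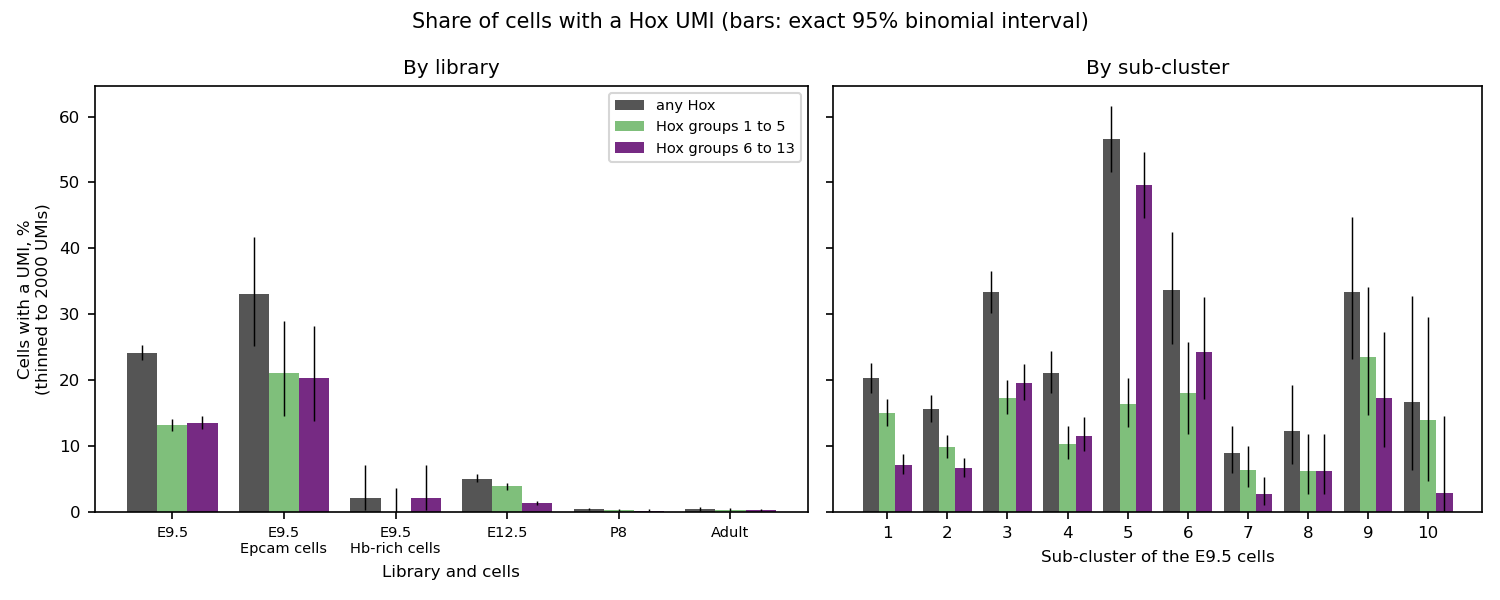
Share of cells with a Hox UMI after thinning to 2000 UMIs, by library and background class (left) and by sub-cluster of the E9.5 cells (right), with exact 95% binomial intervals for counting error. Any-Hox shares are 24.2% in E9.5 cells and 5.04% at E12.5, and groups 6 to 13 reach 49.6% in sub-cluster 5 and 2.61% in sub-cluster 7.

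Clustering of the 5183 cells on their variable genes gave 10 sub-clusters, 9 of at least 50 cells. Because the genes that define a cluster were used to make it, the values below describe and do not test it. Sub-cluster 1 (1204 cells, 23.2%) was venous-like: Nr2f2 was at 118 CPM against 42.7 in the other cells, Dab2 at 90.2 against 38.8 and the neuropilin Nrp2 at 208 against 84.0. Sub-cluster 2 (1190 cells, 23.0%) was tip cell-like, with Esm1 at 53.6 against 16.5, Kcne3 at 92.7 against 29.4 and Nid2 at 58.2 against 22.3, though its first gene was Vwa1 at 78.9 against 10.2 and Apln was not among its leading 10. Sub-cluster 3 (887 cells, 17.1%) was arterial-like: the connexin Gja5 was at 111 against 3.36, Gja4 at 811 against 79.9 and Vegfc at 148 against 10.5. Its leading genes also held the mural gene Tagln at 468 against 32.2 and Vwf, a gene of the venous list, at 91.7 against 12.4. These 3 made up 3281 cells. Their names rest on 3, 3 and 4 of their 10 leading genes. The 11 venous genes summed to 1235 in sub-cluster 1, 1111 in sub-cluster 9 and 1047 in sub-cluster 3. The 15 tip cell genes summed to 432 in sub-cluster 2 and 315 in sub-cluster 3. Nr2f2 was also frequent in the Epcam-bearing barcodes, as given below.

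Slc2a1, Foxq1 and Lef1 had their highest sub-cluster level in sub-cluster 2, the tip cell-like one. Its name rests on few genes, so these levels do not place the 3 genes in tip cells. Slc2a1 was at 432 in it, 399 in the arterial-like and 185 in the venous-like one, and 73.9 in the endocardial-like one. Foxq1 was at 17.0 in the tip cell-like, 4.92 in the arterial-like and 0.798 in the venous-like one, against 173 in E12.5 cells as a whole. Lef1 was at 48.6, 19.7 and 26.0 in the same order. Mfsd2a reached 0.390 at most in any sub-cluster.

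Sub-cluster 5 (399 cells, 7.70%) was led by Hoxa7 at 64.0 against 7.55, Hoxa9 at 56.4 against 7.72, Dlk1, Pcsk1n, Hoxb8, Rspo3, Bmp4 and Meg3. Hoxa7, Hoxa9 and Hoxb8 put 3 of its 10 leading genes on the Hox list, which marks position and was not used to name cell types, so it stayed unnamed. Groups 6 to 13 were seen in 49.6% of its thinned cells. Sub-cluster 7 (272 cells, 5.25%) was endocardial-like, with Tbx20 at 79.0 against 1.66, Gata4 at 76.2 against 2.75, Hand2 at 148 against 5.99 and the neuregulin Nrg1 at 67.1 against 3.85, all genes of the heart's inner lining and its precursors. Cldn5 was at 91.9 in it and Slc2a1 at 73.9. Hand2, at 498 UMIs at E9.5 and 1 at E12.5, was one of 4 of 6 endocardial genes higher at E9.5, where 9.14% of all genes were, 2 of the 4 with 10 CPM at E9.5 alone. In the venous-like, tip cell-like and arterial-like cells Hand2 was at 4.88, below the level for a comparison. Hapln1 was at 253 in them, close to its level over all E9.5 cells.

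Sub-cluster 9 (83 cells, 1.60%) carried the hyaluronan receptor Lyve1 at 1294 against 24.6, the scavenger receptor Stab2 at 410.0 against 7.82 and Mrc1 and Maf, with Prox1, the lymphatic factor, at 1.78. Sub-cluster 8 (131 cells, 2.53%) was megakaryocyte-like, with Pf4 at 24474 and Gp1bb at 1173, and Erg at 4.69. Sub-cluster 10 (37 cells, 0.714%) was erythroid-like, with Alas2 at 200.1 and Hba-x at 36497, and 70.3% of its cells lay in the tenth of barcodes with the highest simulated doublet score, against 26.0% in the megakaryocyte-like, 19.6% in the arterial-like, 17.2% in the venous-like and 12.4% in the tip cell-like one. Over all E9.5 cells Pf4 was at 660.0 with sub-clusters 8 and 10 and 24.2 without, against 164 at E12.5. No cells of these kinds were taken out at E12.5, so 24.2 and 164 come from unlike sets of cells. Runx1, a factor of blood-forming endothelium, was at 10.1 with sub-clusters 8 and 10 and 5.19 without, which is below the level for a comparison. Sub-clusters 4 (656 cells, median 4224 UMIs) and 6 (324 cells, median 1682) stayed unnamed. Sub-cluster 6 was shallow, held Myl7 at 1180.2, Acta2 at 608, Krt18 at 159 and Col1a1 at 64.2, and was led by AY036118, Nnat, Tpm1 and the ribosomal-RNA-related Gm42418, with heart muscle, epithelial and mesenchyme lists summing to 2382, 363 and 241.

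**Figure D5:**
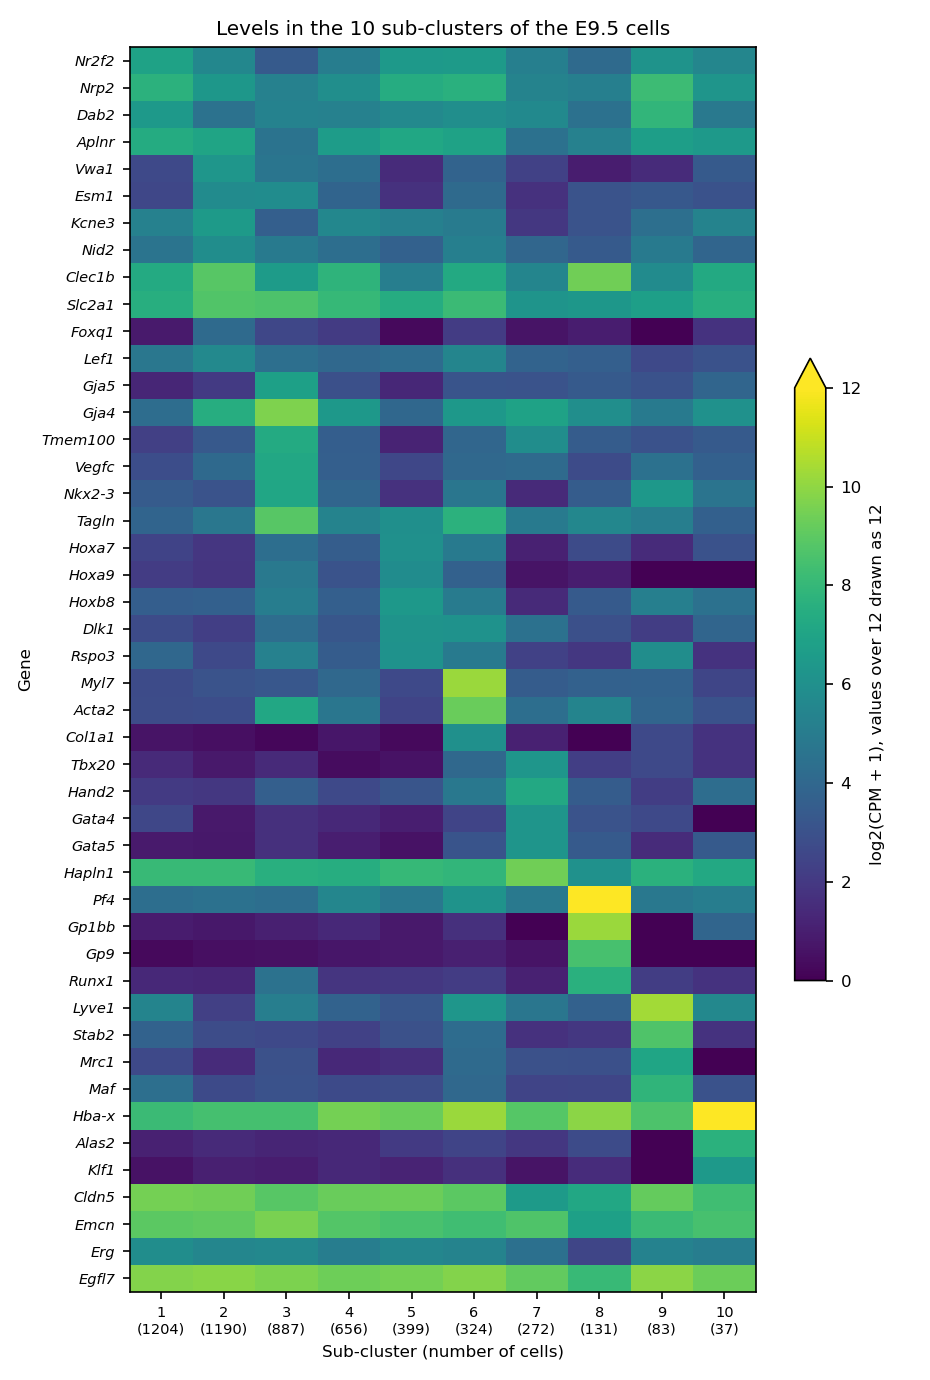
Levels (log2 of CPM plus 1, values over 12 drawn as 12) of marker and leading genes in the 10 sub-clusters of the E9.5 cells, with the number of cells in each. Gja5 and Vegfc stand out in sub-cluster 3, Tbx20 and Hand2 in 7, Pf4 in 8 and Lyve1 and Stab2 in 9, and Cldn5 is lowest in 7, at 91.9.

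Vessel-type genes were seen together in cells to different degrees after thinning. Among 1110 cells with a Gja4 UMI, 8.92% had Aplnr and among cells without Gja4 20.2% did. Gja5 was seen in 14.1% of Gja4 cells and 1.57% of the others. Esm1, a tip cell gene, and Gja4 were seen together more often: 41.9% of 267 Esm1 cells had Gja4, against 21.4% of the rest. Esm1 and Kcne3, both on the tip cell list, were seen together little more often than apart: 9.74% of Esm1 cells had Kcne3, against 7.49% of the rest. Among all E9.5 cells and the Epcam-bearing barcodes, Gja4 was seen in 22.5% and 7.52%, Aplnr in 17.7% and 3.76%, and Nr2f2 in 10.2% and 18.8%. The Nr2f2 share is thus not above this background, and its overlap with Gja4 is not read. Gja5 and Esm1 were seen in 0 of 133 of these barcodes. Sparse counts limit all these shares.

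The genes that varied most between the cells, by Fano factor (variance over mean) relative to genes of like mean in 4582 genes, were led over all cells by haemoglobin, platelet and muscle genes. Like mean was set by 20 bins. The highest bin held means as unlike as 1.61 UMIs for Cdkn1c and 27.9 for mt-Co3, so the most abundant genes were set beside less abundant ones. The part of abundance in their ranks was not tested. Hbb-y had a relative factor of 70.7, Pf4 70.6, Hba-x 46.9 and Hba-a1 13.9. Pf4 encodes a platelet factor and the others are globins. Myl7 (25.5) and Acta2 (8.55) are genes of heart and smooth muscle. Of the top 20, Cdkn1c, a cell cycle inhibitor, had a relative factor of 5.61 and was at 5199 in the endocardial-like, 1463 in the arterial-like and 227 in the venous-like sub-cluster. Tagln (3.63), Lyve1 (3.51) and Apoe (3.07) were also in the list, with Malat1, Tmsb4x, mt-Co3, Gm42418, Hbb-bh1, Gp1bb, Plek, Rabgap1l, Thbs1 and Fermt3. Without the megakaryocyte-like and erythroid-like sub-clusters (4759 thinned cells, 4573 genes) 12 of these 20 remained among the top 20. Pf4 then had a relative factor of 1.09, Hbb-y 7.00, Hba-x 3.60 and Hba-a1 1.73. Myl7 at 25.7, Acta2 at 8.64, Cdkn1c at 5.67, Tagln at 3.63 and Lyve1 at 3.53 moved little, and Gja4 at 2.44 and Meg3 at 2.35 were among the 8 genes that entered. Only genes with a mean of at least 0.05 UMIs in thinned cells were ranked, so low barrier and Wnt genes such as Mfsd2a, Foxq1 and Foxf2 could not enter. Of the barrier and Wnt genes that were ranked, such as Slc2a1, Abcg2 and Ctnnb1, none was among the top 20. This held with or without the megakaryocyte-like and erythroid-like sub-clusters. Over all cells Slc2a1 still ranked high, at 77 of 4582 with a relative factor of 1.34, while Ctnnb1 ranked 2529 and Abcg2 3579.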

How the data were processed

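The deposited single-cell files are sparse matrices of UMI counts per gene and barcode that the authors made with Cell Ranger (version 4.0.0 per the file headers of the E9.5, P8 and adult libraries). Build mm10 and Seurat 4.0.4 are named per the submitters' processing notes. Labels name the same 10x 3′ kit version for all single-cell libraries, while E12.5 barcodes belong to another barcode set than E9.5 barcodes. The E16.5 library was not compared by gene. UMI counts were summed over cells chosen by the rule, over the 27998 genes that these libraries share, and given as counts scaled to 1000000 UMIs (CPM; Python 3.11.15, NumPy 2.4.6, SciPy 1.17.1). A call needed a 2-fold ratio and 10 CPM in the higher library, with values under 3 UMIs set to 3. Shares used cells thinned at random to 2000 UMIs and exact Clopper-Pearson 95% intervals, and levels exact Poisson ones. Both cover counting error only. Clusters came from Leiden (leidenalg 0.10.2, resolution 0.5, 20 components, 2000 variable genes without mitochondrial, ribosomal, haemoglobin and sex-linked genes, 20 neighbours) and were named from the listed markers when at least 3 of their 10 leading genes were on 1 cell type or vessel type list (the Hox list gave no name). No doublet was removed: the tenth with the highest simulated doublet score was left out as an alternative. The steps were tested on simulated data.

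Genes were named by rule: in each list those past 2-fold against E12.5, or the 8 highest, and the highest at E9.5; the 15 largest ratios each way at 50 CPM or more; the 10 leading genes of each sub-cluster; and the 20 largest relative Fano factors. Genes named besides these were chosen after their values were seen, and some genes that the rule names are not reported here. The members, lists and rules were chosen with earlier results of these data known.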

Additional observations from a re-analysis of the deposited data

How the results depend on the processing

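No paired analysis was possible because each age has 1 library and no replicate number. The counts of genes past 2-fold depended on the thresholds. Without a minimum level, 2614 genes were higher and 3445 lower than at E12.5, and 3668 higher and 6211 lower than in the adult. With a minimum of 50 CPM these were 346, 708, 1072 and 1522, and with 4-fold 153, 447, 967 and 1547. All other settings gave counts over all genes within 1.5 times of those reported, among them totals without haemoglobin, mitochondrial and ribosomal genes, with 1026, 1416, 2602 and 2675. Under the last setting fetal RNA-binding genes higher than at E12.5 numbered 7 of 7 (4 of 6 as reported) and lower BMP and TGF-beta genes 3 of 13 (6 as reported). Thresholds act by taking in or leaving out genes, and the cause of other moves was not tested. The number of cells was 1857 with at most 5% mitochondrial UMIs and 2368 without cells with 2 or more UMIs of other lineages. The share with a Hox UMI was 14.3% thinned to 1000 UMIs, 38.5% at 4000 and 50.3% without thinning, and 21.6% without cells with UMIs of other lineages. Added after seeing the data were 5015 cells without the blood-like sub-clusters, 4203 without sub-clusters 4 and 6, 3281 cells of the 3 vessel-type sub-clusters, with a Hox share of 22.1%, 2575 cells without a Hox UMI, and cells without both Xist and Y-linked UMIs, with 23.0%, and the ranking of variable genes without the blood-like ones. The sub-clusters of at least 50 cells numbered 8 to 13. Levels under 3 UMIs, such as Slco1a4 at E9.5, are below what this depth shows.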
